A study of Mus musculus with 18 samples.

Results

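The comparison described here is that of NFIA-Tg with WT cells in undifferentiated stromal-vascular cultures at day 0, that is 6 of the 18 RNA-seq samples of a mouse study on the transcription factor NFIA in fat, chosen by their sample titles. Stromal-vascular cells are the cells left after mature adipocytes are removed from a fat depot, and these came from inguinal (subcutaneous) fat, as the source name abbreviates it. Each genotype was represented by 3 libraries, and the other 12 samples are 6 cultures of the same 2 genotypes at day 7 and 6 inguinal white fat samples. All cultures grew in serum medium, and the day 0 cells stand before differentiation, which is started at confluence with insulin, T3, dexamethasone, isobutylmethylxanthine, rosiglitazone and indomethacin. The sources used here do not give the promoter of the NFIA transgene, the age, sex and strain of the mice or the passage of the cells. Nothing in the labels says whether the 3 libraries of a genotype came from separate mice or separate dishes. The p-values therefore measure only the spread between libraries, pooled over the cultures of both days, which may be technical. The transgene cannot be told apart from any other difference between the WT and the NFIA-Tg cell preparation.

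NFIA is a member of the nuclear factor I family (Nfia, Nfib, Nfic and Nfix), DNA-binding proteins that bind a palindromic element and in fat are known to open regulatory regions shared with PPARγ in brown adipocytes. Adipose progenitors pass from dividing, uncommitted cells through a committed preadipocyte state, in which Zfp423, Ebf2 and C/EBP factors prepare the cell for PPARγ, to lipid-filled adipocytes. Cultured progenitors divide until confluence, and growth arrest precedes the differentiation programme.

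Values are FPKM, counts of sequenced fragments corrected for transcript length and library size, so levels of different genes can be compared. The 6 libraries held 20837142 to 28625625 reads, recovered from the values, and 11392 to 11600 genes at 1 FPKM or more. Across the tested genes, log2 levels correlated at 0.994 to 0.997 between libraries of the same genotype and at 0.955 to 0.96 between genotypes (Pearson r, a description across genes, which are not independent). Differences are NFIA-Tg minus WT on the log2(FPKM + 1) scale, which understates changes of low genes. A gene is called where limma's adjusted p was under 0.05.

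Nfia itself measured 6.42, 6.3 and 6.51 FPKM in the 3 WT libraries and 11.3, 12.5 and 11.9 FPKM in those labelled NFIA-Tg. All 3 NFIA-Tg libraries lay above all 3 WT libraries, in the direction of the label, with a difference of 0.80 ± 0.053 (SE) and an adjusted p of 6.75e-08. The tables give 1 value per gene, so transcripts of the transgene and of the endogenous gene cannot be told apart. Nfib was low in WT, at 0.413, 0.379 and 0.344 FPKM, and stood at 1.5, 1.66 and 1.37 FPKM in NFIA-Tg, again without overlap, a difference of 0.86 ± 0.095 (SE). Nfic, the second most abundant member, was slightly lower, at 42, 38.8 and 39.3 FPKM in WT against 33.4, 35.1 and 34.7 in NFIA-Tg. Nfix was the most abundant member in both genotypes, at 75.2 ± 1.17 FPKM in WT and 80.6 ± 3.59 FPKM in NFIA-Tg, and was not called (adjusted p = 0.0509). It was called in 5 of the alternatives run, without NFIA-Tg replicate 1 among them (0.13). Among the 4 members, Nfib was thus the lowest and Nfix the highest in both genotypes at day 0.

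**Figure D1:**
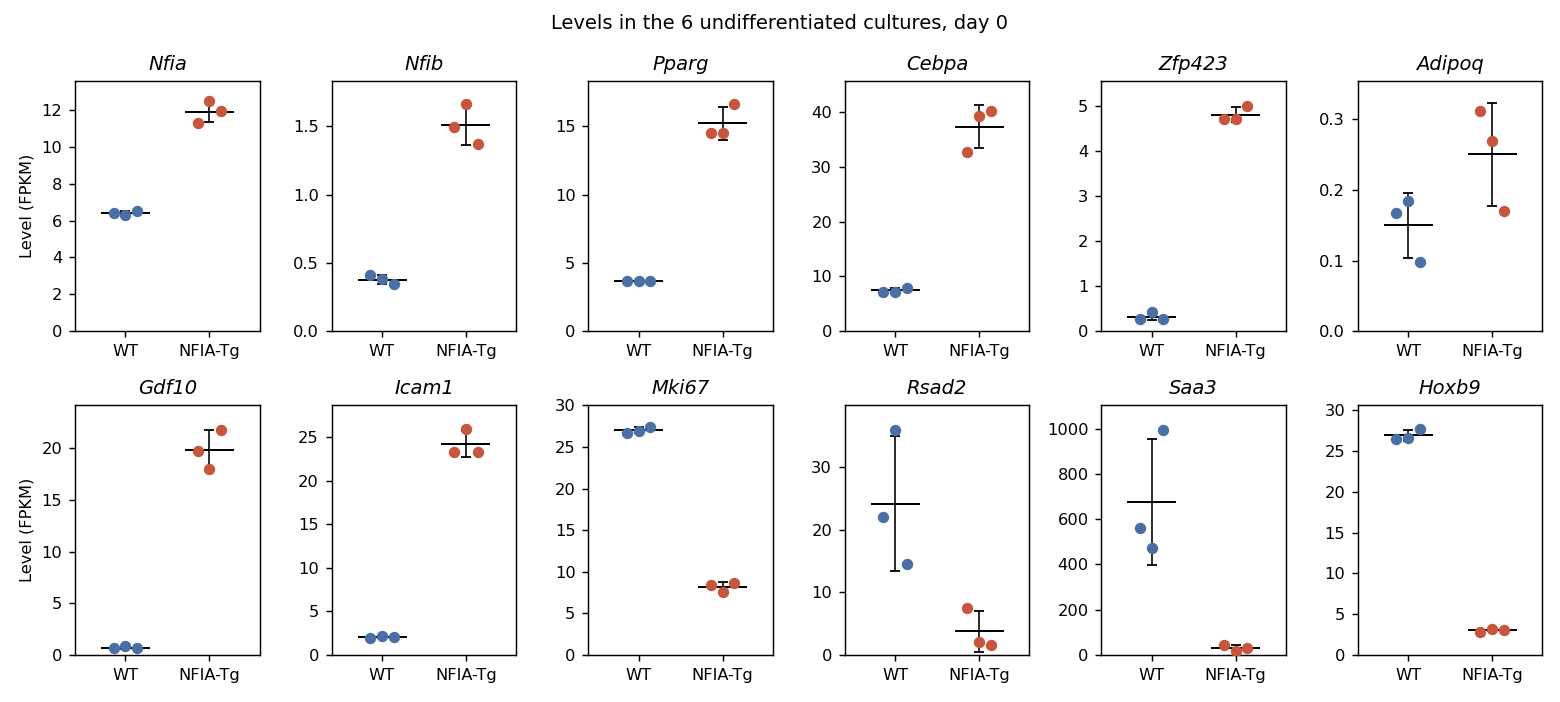
Levels in FPKM (linear axis from 0) of 12 genes in the 6 undifferentiated cultures. Each point is 1 library, the line the mean and the bar the SD of 3; the 2 genotypes overlap for Adipoq and are apart for the other 11 genes.

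The genotypes differed across a large part of the measured transcriptome. Among 12553 tested genes, 63.0% passed: 28.1% were higher and 34.9% lower in NFIA-Tg. The median difference over all tested genes was -0.03. Most differences were small: 3.66% of genes were called higher with a difference of at least 1 on the log2 scale, and 2.53% were called lower by that much. The 3 values of one genotype lay outside the range of the other for 70.2% of genes. Gene lists are read against these shares, since a list near them says nothing about its members.

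In these bulk cultures, fewer cells of a type and less RNA per cell cannot be told apart. Transcription factors of adipogenesis were higher in NFIA-Tg: 18 of 29 tested members were called higher and 4 lower, 5 members were higher by at least 1, and the median difference was 0.25. Pparg, the nuclear receptor that drives fat cell differentiation, was at 3.71, 3.68 and 3.67 FPKM in WT against 14.5, 14.5 and 16.6 in NFIA-Tg. Cebpa, its partner factor, was at 7.2, 7.2 and 7.91 FPKM in WT against 32.7, 39.2 and 40.1 in NFIA-Tg. Both were called, with differences of 1.79 ± 0.048 (SE) and 2.18 ± 0.081 (SE), and the groups were far apart beside the spread within them. Zfp423, a zinc-finger factor that marks committed preadipocytes, stood at 0.274, 0.419 and 0.274 FPKM in WT against 4.73, 4.71 and 5.01 in NFIA-Tg, so that it was almost undetected in 1 genotype. Ebf2, which marks precursors of thermogenic adipocytes, was at 1.79, 1.98 and 1.65 FPKM in WT against 5.11, 5.13 and 4.9 in NFIA-Tg. Nr1h3, the oxysterol receptor LXRα, was higher as well (difference 1.62). The early factors did not follow: Cebpb, induced within hours of the cocktail, was at 37.4 ± 4.36 FPKM in WT and 38.5 ± 1.26 FPKM in NFIA-Tg (adjusted p = 0.839), and Cebpd, its relative, was not called either (adjusted p = 0.373). The 4 lower members were Creb1 (-0.38), Gtf2f1 (-0.30), Tbx15 (-0.25) and Stat5b (-0.21), all by less than 0.4.

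The day 7 WT cultures give a scale for these levels. Pparg in the day 0 NFIA-Tg cultures reached 21.5% of its WT day 7 mean, against 5.22% in day 0 WT, and Cebpa 23.1% against 4.6%. Zfp423 reached 66.6% in NFIA-Tg against 4.45% in WT. Nfia goes against the day 7 labels, and whether they are right was not tested. Set against the day 7 libraries labelled NFIA-Tg, the same shares were 21% against 5.09% for Pparg, 52.6% against 10.5% for Cebpa and 140% against 9.37% for Zfp423. Of the genes differing by at least 1 at day 0, 265 of 317 lower (83.6%) and 149 of 460 higher (32.4%) were called in the same direction at day 7. Over all tested genes, 51.1% were called lower and 29.8% higher at day 7, so the share of the higher genes was near that of all. Xlr3b, with no read in NFIA-Tg at day 0, was at 0 FPKM under that label at day 7 too, against 4.62 FPKM in WT.

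Genes of the mature adipocyte were mostly still at low levels, although the labels name the cultures adipocytes at both days. Adipoq, the adiponectin gene and a defining adipocyte marker, stood at 0.168, 0.185 and 0.098 FPKM in WT against 0.312, 0.27 and 0.17 in NFIA-Tg, with overlapping groups and no call, although it was called higher in 4 alternatives, with a pseudocount of 0.1 (0.48) or 0.5 (0.21), with TPM (0.26) and without NFIA-Tg replicate 3 (0.17). Cd36, the fatty acid transporter, was likewise under 0.2 FPKM in all 6 cultures and not called, except as lower with a pseudocount of 0.1 (-0.20) and with quantile normalization (-0.12). In all, 22 of the 48 listed members were under 1 FPKM in every culture. Only 3 listed members failed the filter, because it also counted the day 7 libraries. Most members under 1 FPKM at day 0 were thus tested through their day 7 levels. Within the list, 26 of 45 tested members were called higher and 2 lower, with a median of 0.28. The count called higher ranged from 19 to 33 across the alternatives. Lpl, the lipase that releases fatty acids from lipoproteins, was the most abundant of the called members, with 138, 135 and 158 FPKM in WT against 515, 562 and 523 in NFIA-Tg. Plin4, which coats lipid droplets, measured 0.593 ± 0.0846 FPKM in WT against 10.2 ± 0.4 in NFIA-Tg (mean ± SD, n = 3). G0s2, the inhibitor of the lipase Pnpla2, rose from 2.78 ± 0.738 to 16.5 ± 1.6 FPKM. Fabp4, the fatty acid binding protein of adipocytes, was at 8.34, 6.48 and 8.45 FPKM in WT against 12.4, 17.5 and 19.9 in NFIA-Tg, which is called but is 0.0748% of the mean labelled WT at day 7 and 0.0646% of that labelled NFIA-Tg. Its relative Fabp5 went the other way, from 40.7 ± 3.3 to 27.5 ± 2.15 FPKM. Car3, carbonic anhydrase of adipocytes and muscle, was called, but its NFIA-Tg values of 0.628, 0.579 and 2.81 FPKM rest in part on replicate 3. Of the 27 listed thermogenic genes, 16 were under 1 FPKM in every day 0 culture, but only 7 failed the filter. Of the 20 tested, 8 were called higher and 2 lower, with a median of 0.11 that ranged from 0.03 to 0.53 across the alternatives. Without NFIA-Tg replicate 1 or replicate 2, 18 passed the filter and 5 were higher. The members lost had passed only with that library at 1 FPKM or more, so their direction was partly set by the filter. Ucp1, which uncouples respiration in brown fat, was at or under 0.06 FPKM in all 6 cultures. Ckmt1, a mitochondrial creatine kinase, was at 0.0243, 0.0267 and 0.0945 FPKM in WT against 1.3, 2.17 and 1.5 in NFIA-Tg.

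Regulators known to hold back adipogenesis were more often higher than lower. Of 27 tested members, 15 were called higher, 4 of them by at least 1, and 7 lower, with a median of 0.23. Dlk1, the preadipocyte factor Pref-1 that inhibits differentiation, was at 0.629, 0.605 and 0.51 FPKM in WT against 2.13, 2.87 and 2.73 in NFIA-Tg. Gata2, a repressor of Pparg, was at 2.47, 1.87 and 2.04 FPKM in WT against 5.9, 5.42 and 6.6 in NFIA-Tg. Id2 and Id3, inhibitors of helix-loop-helix factors, were higher by 1.40 and 1.29. Thus activators and inhibitors of the same process were called higher in the same 3 libraries. Among the lower members were Klf2 (-0.54) and Hes1 (-0.46), the latter a target of Notch signalling.

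Markers of fibroblast-like progenitors were present in both genotypes. Pdgfra, the general progenitor marker, was at 87.1 ± 7.69 FPKM in WT and 94.9 ± 2.91 FPKM in NFIA-Tg and was not called (adjusted p = 0.242). Ly6a (Sca-1, one of a family of close copies) was high in both, at 1239.8 ± 161 FPKM in WT and 2141 ± 305 FPKM in NFIA-Tg, and Cd24a was at 4.11, 2.95 and 3.48 FPKM in WT against 13.3, 12.6 and 14.2 in NFIA-Tg. Of 19 pan-progenitor markers, 7 were called higher and 6 lower, close to balance. Markers of the committed ICAM1+ preadipocyte were higher in 13 of 18 tested and lower in 4 (down to -0.79), with a median of 0.38. Icam1 itself, the adhesion molecule that names this state and also an NF-κB target, was at 1.9, 2.12 and 2.03 FPKM in WT against 23.4, 25.9 and 23.3 in NFIA-Tg. Sparcl1, a matricellular protein of the same list, was higher by 2.32 ± 0.09 (SE). The summed level of the 21 listed ICAM1+ markers was lower in NFIA-Tg, at 4340 to 4390 FPKM against 4540 to 4700 FPKM in WT. The DPP4+ interstitial list split, with 6 higher and 4 lower of 14. Its defining marker Dpp4 was at or under 0.12 FPKM everywhere, while Pi16, a second marker of that state, was at 1.68, 1.9 and 2.17 FPKM in WT against 6.93, 6.13 and 6.57 in NFIA-Tg. In the CD142+ list, 7 of 13 were higher and 2 lower. Gdf10 (BMP3b), a secreted TGF-β family member of that list, was at 0.665, 0.839 and 0.646 FPKM in WT against 19.8, 18 and 21.8 in NFIA-Tg and had the largest rise among called genes with a mean of at least 5 FPKM in either genotype. F3, which encodes CD142, was high in both genotypes, at 214 ± 5.97 and 227 ± 10.9 FPKM, and not called.

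**Figure D2:**
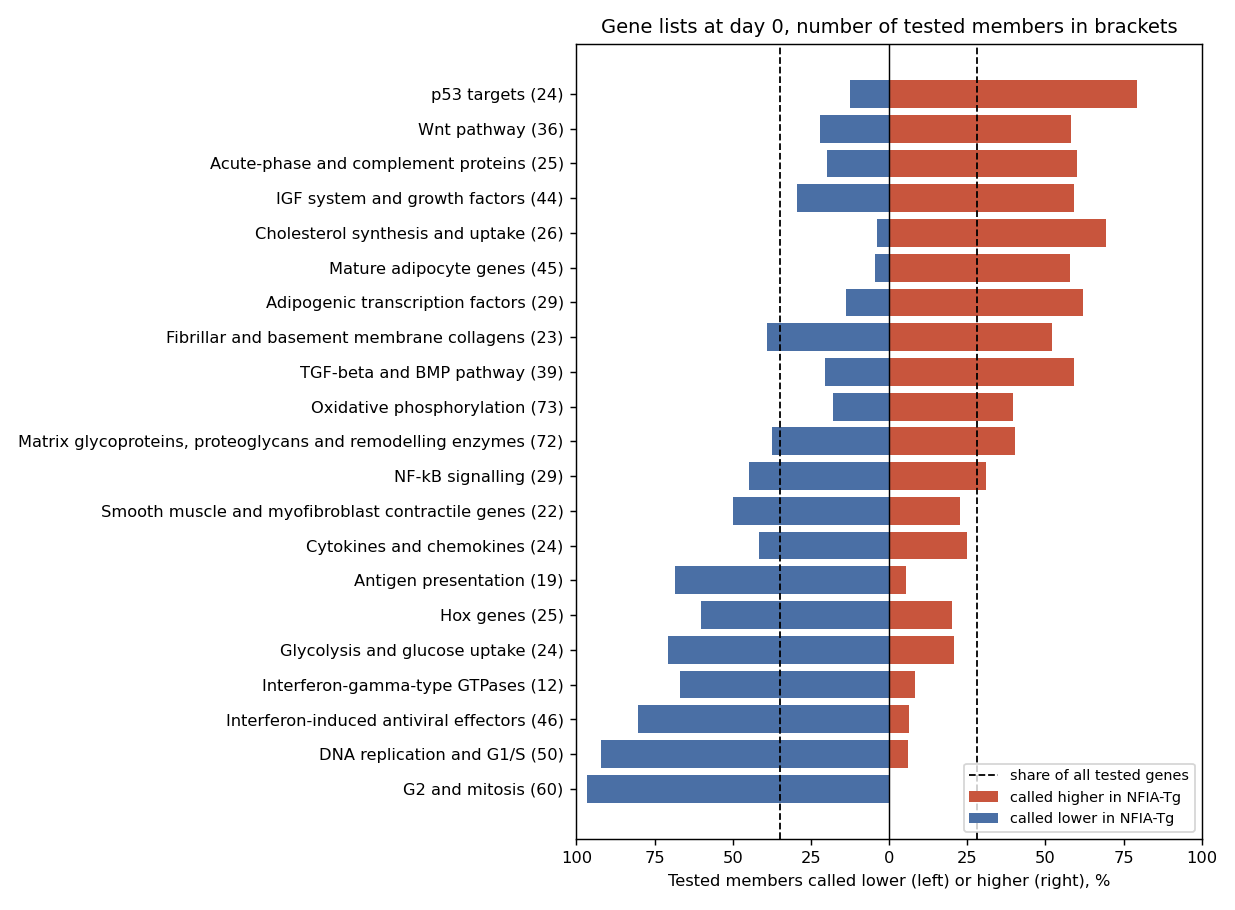
Share of the tested members of 21 gene lists called higher (red, right) or lower (blue, left) in NFIA-Tg, ordered by median difference, with the number tested in brackets. Dashed lines mark the shares over all tested genes, 28.1% and 34.9%; the cell cycle and antiviral lists reach far past the lower line and the p53 and cholesterol lists past the upper one.

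The cell cycle lists were the most one-sided of the lists with over 20 tested genes. Of 60 G2 and mitosis genes tested, 58 were called lower and 0 higher, 48 of them by at least 1, with a median of -1.22. Of 50 genes of replication and the G1/S transition, 46 were lower and 3 higher, with a median of -0.95. Mki67, the proliferation marker, was at 26.7, 27 and 27.4 FPKM in WT against 8.36, 7.55 and 8.65 in NFIA-Tg. Ccnb2, a mitotic cyclin, was at 29.6, 29.5 and 27.9 FPKM in WT against 8.28, 8.15 and 8.55 in NFIA-Tg, the largest fall of its list. Top2a, the topoisomerase that untangles replicated chromosomes, was at 52.9, 53.9 and 54.4 FPKM in WT against 18.2, 17.3 and 18.7 in NFIA-Tg. In all 3 genes the replicates of a genotype stayed close together and the groups were well apart. The 2 mitotic genes not called were Bub3 and Pttg1, with adjusted p of 0.977 and 0.646. Of the replication genes, Uhrf1, which carries DNA methylation through replication, was at 32.6, 29.7 and 30.4 FPKM in WT against 9.21, 9.22 and 9.42 in NFIA-Tg. Mcm5, a subunit of the replicative helicase, and Pcna, the polymerase clamp, were lower as well (-1.39 and -0.94). The 3 exceptions called higher were the cyclins Ccnd1 and Ccnd2 and the ribonucleotide reductase subunit Rrm1. Ccnd1, the growth-factor-induced D-type cyclin, was at 15, 18.9 and 15.9 FPKM in WT against 40.6, 41.1 and 41.3 in NFIA-Tg. Rrm2, the other reductase subunit, was not called. As a scale, Mki67 stood at 63.6 FPKM in the WT cultures at day 7, above both day 0 groups.

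The promoters of these genes are shown because the members moved together and are known to be read by shared cell cycle elements. Windows are 300 bases long, reach from upstream of the start into the first transcribed bases, come from RefSeq (GRCm38.p6, another build than that of the FPKM tables) and were found for 9629 of the tested genes. The capitals mark the cell cycle homology element CHR (TTTGAA or TTCGAA) and the CCAAT box in the mitotic genes Ccnb2 and Mki67, and the E2F site (TTTGGCGC, TTTCCCGC, TTTGCCGC or TTTCGCGC) in the replication gene Uhrf1, all searched on both strands.
Ccnb2, chr9:70421505-70421804, minus strand: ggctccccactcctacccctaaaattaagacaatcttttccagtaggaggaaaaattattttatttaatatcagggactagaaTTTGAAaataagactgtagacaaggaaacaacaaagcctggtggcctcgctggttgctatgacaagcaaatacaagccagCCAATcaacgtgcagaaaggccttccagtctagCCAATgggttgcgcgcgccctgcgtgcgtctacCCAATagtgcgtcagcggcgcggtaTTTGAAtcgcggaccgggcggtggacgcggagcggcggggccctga
Mki67, chr7:135716330-135716629, minus strand: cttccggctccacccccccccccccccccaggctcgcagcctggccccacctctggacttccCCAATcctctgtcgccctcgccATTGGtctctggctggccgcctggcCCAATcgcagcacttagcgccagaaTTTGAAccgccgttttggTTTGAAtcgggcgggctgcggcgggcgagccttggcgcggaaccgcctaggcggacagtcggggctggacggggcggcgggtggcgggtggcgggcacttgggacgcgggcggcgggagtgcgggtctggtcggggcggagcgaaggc
Uhrf1, chr17:56304063-56304362, plus strand: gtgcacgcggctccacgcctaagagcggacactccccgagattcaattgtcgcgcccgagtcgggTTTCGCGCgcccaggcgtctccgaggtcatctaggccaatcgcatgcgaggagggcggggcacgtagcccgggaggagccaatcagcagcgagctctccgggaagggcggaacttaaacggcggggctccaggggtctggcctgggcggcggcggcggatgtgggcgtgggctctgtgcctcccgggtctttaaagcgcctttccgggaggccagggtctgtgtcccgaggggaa
A window with both a CHR and a CCAAT match was held by 33 of 51 G2 and mitosis genes with a window (64.7%), against 8.06% of all tested genes with a window. An E2F match was held by 16 of 40 replication genes (40%) against 4.8% of all. The NFI palindrome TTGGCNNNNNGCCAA matched in 4 of all tested genes with a window, 1 of 328 among genes higher by at least 1 and 0 of 248 among those lower by at least 1. These lists were chosen for known functions, so their shares describe the lists and not the genotype difference. A match describes letters in a window and is not evidence of binding.

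Genes known as p53 targets were mostly higher, and inhibitors of the cell cycle moved in both directions. Cdkn1a (p21), the cyclin-dependent kinase inhibitor that p53 induces, was at 221, 230.3 and 215 FPKM in WT against 416, 454 and 424 in NFIA-Tg. Cdkn2b (p15) and Cdkn2a, which encodes p16 and ARF, were higher by 0.76 ± 0.076 (SE) and 0.68 ± 0.083 (SE). Of 18 CDK inhibitors and pocket proteins, 8 were called higher and 4 lower, the lower ones including Rbl1 (-0.79) and Cdkn2c (-0.56). Of 24 tested p53 targets, 19 were called higher and 3 lower, with a median of 0.48; only 1 was higher by at least 1. That 1 is Gdf15, a stress-induced secreted factor, at 1.72, 2.33 and 2.63 FPKM in WT against 18.7, 22.9 and 21.6 in NFIA-Tg. Mdm2, the ubiquitin ligase that limits p53, was higher by 0.67, while the transcript of Trp53 itself was lower by a small amount (-0.18, adjusted p = 0.0198), a call lost with median-of-ratios scaling (-0.13) and on removal of WT replicate 1 (-0.14) or of NFIA-Tg replicate 2 (-0.16).

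Interferon-induced genes were lower in NFIA-Tg, with a marked difference between cultures. Of 46 tested antiviral effectors, 37 were called lower, 16 by at least 1, and 3 higher, with a median of -0.86. Rsad2 (viperin), an enzyme that makes a chain-terminating nucleotide, was at 22, 35.9 and 14.6 FPKM in WT against 7.51, 2.1 and 1.66 in NFIA-Tg. Oas3, a sensor of double-stranded RNA, was at 8.65, 13.2 and 8.73 FPKM in WT against 2.13, 0.743 and 0.607 in NFIA-Tg. Neither gene overlapped between genotypes, but NFIA-Tg replicate 1 was the highest of its group and WT replicate 2 of the other. In other members that spread closed the gap. Ifit3, a protein that binds foreign RNA, was at 218, 365 and 197 FPKM in WT against 231, 95.9 and 66.8 in NFIA-Tg, so replicate 1 lay within the WT range (called, adjusted p = 0.0174). That call rested on single libraries, since Ifit3 was no longer called once WT replicate 2 (-0.85) or NFIA-Tg replicate 3 (-0.74) was removed, nor once NFIA-Tg replicate 2 was. Mx1, the dynamin-like GTPase, was at 10.8, 21.4 and 8.82 FPKM in WT against 18.1, 3.05 and 2.97 in NFIA-Tg and was not called. It was in 2 of the alternatives run, without NFIA-Tg replicate 1 (-1.78) and with limma voom on the recovered reads (-1.33). Measured per culture as the median distance of the 46 genes from their WT mean, the NFIA-Tg cultures stood at -0.27, -1.05 and -1.16 and the WT cultures at -0.08, 0.24 and -0.14 on the log2 scale. Without NFIA-Tg replicate 1, 42 members were called lower, and without WT replicate 2, 33 with a median of -0.67. The count ranged from 33 to 42 when each 1 of the 6 cultures was left out in turn. The 3 members called higher were Ifi27 (0.83), Lgals3bp (0.51) and Ifitm3 (0.44).

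**Figure D3:**
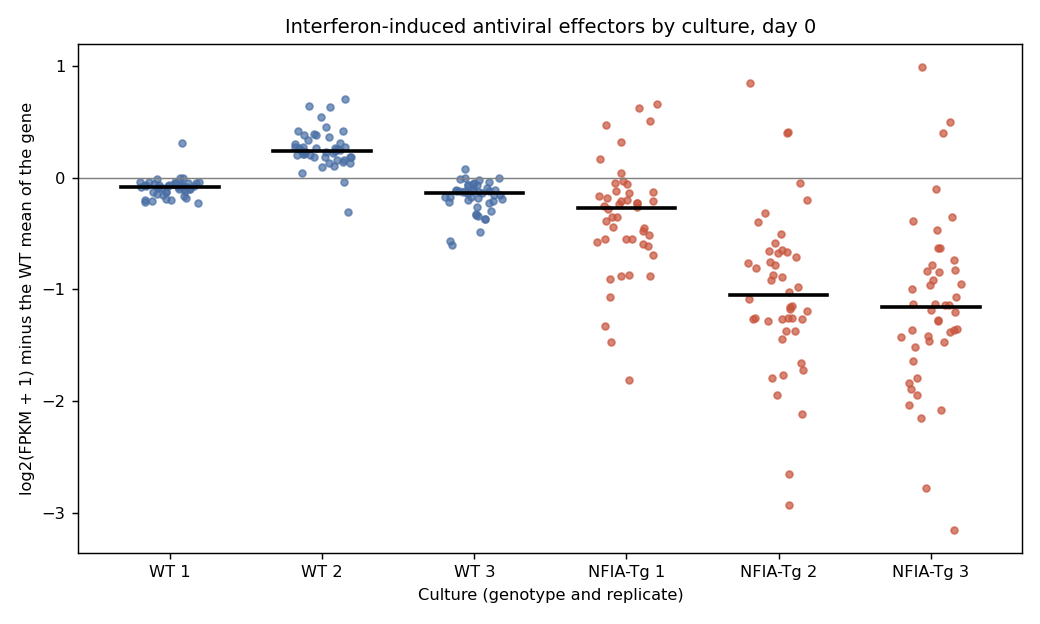
Level of each of 46 antiviral effector genes in each culture, as log2(FPKM + 1) minus the WT mean of that gene (y axis); points are genes and black lines medians over genes. NFIA-Tg culture 1 has a median of -0.27, between the WT cultures and NFIA-Tg cultures 2 and 3 at -1.05 and -1.16.

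The promoters of the 2 effectors with the largest falls are shown with the interferon-stimulated response element (GAAANNGAAA on either strand) in capitals.
Rsad2, chr12:26456403-26456702, minus strand: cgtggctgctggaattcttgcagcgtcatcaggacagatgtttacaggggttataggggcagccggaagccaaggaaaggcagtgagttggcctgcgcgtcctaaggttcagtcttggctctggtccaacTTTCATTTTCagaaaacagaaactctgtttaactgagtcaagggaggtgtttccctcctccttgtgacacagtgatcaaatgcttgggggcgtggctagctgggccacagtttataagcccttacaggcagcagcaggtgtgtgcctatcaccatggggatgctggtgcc
Oas3, chr5:120777610-120777909, minus strand: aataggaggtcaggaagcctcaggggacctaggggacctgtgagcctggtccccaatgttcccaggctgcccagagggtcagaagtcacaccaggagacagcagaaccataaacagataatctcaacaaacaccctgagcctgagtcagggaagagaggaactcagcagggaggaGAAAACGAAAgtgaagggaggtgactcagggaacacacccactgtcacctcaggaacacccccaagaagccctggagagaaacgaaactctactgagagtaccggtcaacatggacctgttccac
The element was found in the windows of 15 of 36 antiviral effectors (41.7%) against 3.78% of all tested genes with a window, and in 13.3% of those lower by at least 1. The list holds known interferon-induced genes, so its share describes the list and not the genotype difference. The genes lower by at least 1 include members of that list.

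The sensing and signalling list lies upstream of these effectors. Among its receptor chains, Ifnar1, which binds type I interferon, was higher by 0.18, and Ifngr1, the ligand-binding chain for interferon-γ, was higher by 1.27 ± 0.075 (SE). Ifngr2, its partner chain, was called higher in 3 alternatives only, with differences of 0.13 to 0.14. Members of the sensing and signalling list that are themselves interferon-induced were lower, among them Irf7, which amplifies interferon production (-0.91), and Usp18, which removes ISG15 from proteins (-1.64). In all, 15 of 29 were called lower and 6 higher. Ifnb1, the interferon-β gene, was at 0.108, 0.0591 and 0.261 FPKM in WT against 0, 0.0959 and 0 in NFIA-Tg, below the filter. Of 12 interferon-γ-type GTPases, 8 were lower and 1 higher, with Igtp at 54.7, 75.4 and 45.4 FPKM in WT against 39.7, 20.1 and 18.7 in NFIA-Tg; without NFIA-Tg replicate 1, 11 were lower and 0 higher, while removal of WT replicate 2, or of replicate 2 or 3 of NFIA-Tg, left 6 lower and 1 higher each time.

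Genes of class I antigen presentation were lower as well. Of 19 tested members, 13 were called lower and 1 higher, with a median of -0.50. H2-K1, a class I heavy chain, was at 217, 298 and 245 FPKM in WT against 77.4, 78.4 and 72 in NFIA-Tg. H2-D1, the second classical chain, was at 70.7, 88.4 and 71.5 FPKM in WT against 26.2, 28.1 and 25.4 in NFIA-Tg. The groups did not overlap in either gene, but class I genes share long near-identical stretches, and how reads were divided between them is not given. B2m, the light chain, has no such copies and was lower, with a difference of -0.62 ± 0.091 (SE), from 1574 ± 218 to 1020.2 ± 40.6 FPKM. The immunoproteasome subunits Psmb8, Psmb9 and Psmb10 were lower (-1.10, -1.11 and -0.97).

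Secreted immune mediators moved in both directions. Of 24 tested cytokines and chemokines, 10 were called lower and 6 higher, against the 34.9% and 28.1% of all genes, and 21 more were below the filter. Cxcl10, an interferon-induced attractant of T cells, was at 102, 171 and 60.9 FPKM in WT against 37, 8.12 and 6.51 in NFIA-Tg. Cxcl12, the stromal factor that retains haematopoietic cells, was at 339, 321 and 400.3 FPKM in WT against 178, 165 and 173 in NFIA-Tg. Ccl2, the monocyte attractant, was abundant and not called (adjusted p = 0.219), nor was Il6 (adjusted p = 0.0737) unless NFIA-Tg replicate 1 was left out (-0.57) or limma voom was used (-0.46). Il34, a ligand of the macrophage growth factor receptor, was higher at 4.26 ± 0.0609 FPKM against 0.855 ± 0.179 FPKM. In NF-κB signalling, 13 of 29 were lower and 9 higher, with a median of -0.05. The prostaglandin enzymes of that list split: Ptges, the terminal prostaglandin E synthase, was higher by 1.48 and Ptgs2, the inducible cyclooxygenase, was lower (-1.10).

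Acute-phase and complement genes were mainly higher, with Saa3 and Cd59a as large exceptions. Of 25 tested, 15 were called higher, 9 by at least 1, and 5 lower. C4b, a complement component that binds targets covalently, was at 60.9, 69.9 and 71 FPKM in WT against 270.3, 259 and 248 in NFIA-Tg. C3, the central complement component, was at 181, 179 and 245 FPKM in WT against 585, 495 and 536 in NFIA-Tg. Lbp, the lipopolysaccharide-binding protein, was higher by 2.02 ± 0.084 (SE). Saa3, the serum amyloid A of extrahepatic tissue, went the other way and had the largest fall by the same criterion. It was at 559.9, 473 and 995 FPKM in WT against 45.6, 18.9 and 28.6 in NFIA-Tg, a difference of -4.41 ± 0.31 (SE). WT replicate 3 was the highest for Saa3, yet the lowest WT value was over 10 times the highest NFIA-Tg value. Cd59a, which protects cells from complement lysis, was also lower (-1.98), from 3.87 ± 0.432 to 0.23 ± 0.0753 FPKM.

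Hox genes, which keep the positional identity of a cell's origin along the body axis, differed by cluster. In the Hoxb cluster, 8 of 8 tested genes were called lower, with differences of -2.79 to -1.21. Hoxb9 was at 26.5, 26.6 and 27.7 FPKM in WT against 2.86, 3.16 and 3.05 in NFIA-Tg. Hoxb8 was at 4.62, 4.83 and 4.9 FPKM in WT against 0.617, 0.698 and 0.792 in NFIA-Tg. The replicates of each genotype lay within a narrow band in both genes. In the Hoxa cluster, 6 of 8 were lower and 0 higher, with Hoxa9 the furthest at -0.95. In the Hoxc cluster, 5 of 9 were higher and 1 lower. Hoxc10, the most abundant of these in WT, was at 31.8 ± 0.502 FPKM in WT and 43.5 ± 0.518 FPKM in NFIA-Tg, and Hoxc13 was higher by 0.84 ± 0.083 (SE). The exception was Hoxc12, at -1.16, between the neighbours Hoxc13 and Hoxc11. Hoxc11 was not called, but was called higher in 3 alternatives, with the 6 day 0 libraries alone (0.21), median-of-ratios scaling (0.25) and quantile normalization (0.24). All 9 listed Hoxd genes were below the filter in both genotypes.

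**Figure D4:**
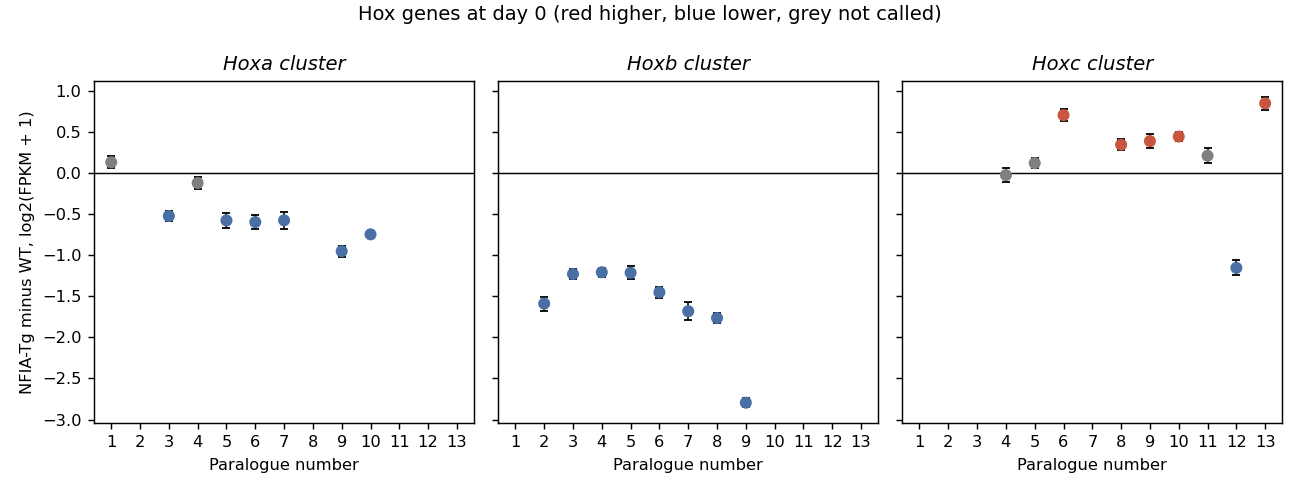
Difference (NFIA-Tg minus WT, log2(FPKM + 1), ± SE) of the tested Hox genes against their paralogue number in 3 clusters; red points were called higher, blue lower and grey not called. The Hoxb genes lie between -2.79 and -1.21, and 5 of 9 Hoxc genes lie above 0 and are called.

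Signalling genes of the BMP and Wnt pathways were more often higher than lower. In the TGF-β and BMP list, 23 of 39 were higher, 10 by at least 1, and 8 lower. Id1, a direct target gene of BMP signalling, was at 12.3, 14.7 and 10.8 FPKM in WT against 59.6, 69.8 and 63.2 in NFIA-Tg. The inhibitory SMAD gene Smad6, also a BMP target, was higher by 1.12. Grem1, the secreted BMP antagonist, was at 32.9, 34.9 and 31.9 FPKM in WT against 6.91, 8.33 and 9.08 in NFIA-Tg, without overlap. Fst, which binds activins, was higher (1.52) while Inhba, the activin A subunit, was lower (-1.03). Bmp4, the ligand used to commit progenitors to the fat lineage, was at or under 0.24 FPKM in all cultures.

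In the Wnt list, 21 of 36 were higher, 13 by at least 1, and 8 lower, with a median of 0.45. With NFIA-Tg replicate 1, 2 or 3 left out, 30 members passed the filter, of which 15, 15 and 14 were higher, and the median was 0.16 each time. With any 1 WT library left out, 35 passed. The members lost without an NFIA-Tg library had passed only with that library at 1 FPKM or more. Their direction was thus partly set by the filter and adds no support to the count. The ligand Wnt4 was at 0.423, 0.404 and 0.379 FPKM in WT against 6.19, 4.75 and 6.12 in NFIA-Tg. Axin2 and Nkd1, feedback targets of β-catenin signalling, were higher by 0.83 and 2.19. The secreted antagonists split, with Sfrp4 and Frzb higher (1.55 and 1.61) and Sfrp2 lower. Sfrp2 was at 130.3, 115 and 148 FPKM in WT against 38.4, 37.3 and 34.4 in NFIA-Tg. Wnt10b, the ligand best known for blocking adipogenesis, fell by 0.91 on the log2 scale.

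Among growth factors, 26 of 44 were higher and 13 lower. Fgf10, a stromal factor that supports preadipocytes, was at 0.0634, 0.0696 and 0.132 FPKM in WT against 2.98, 3.67 and 3.42 in NFIA-Tg. Igf2, the fetal insulin-like growth factor, was at 0.137, 0.141 and 0.124 FPKM in WT against 2.09, 2.85 and 2.62 in NFIA-Tg. Both were near 0 in WT. Igfbp5, the binding protein for these factors, was at 51.7, 65.9 and 56.5 FPKM in WT against 4.14, 9.57 and 10.8 in NFIA-Tg, and Igfbp3 was higher by 1.34.

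Matrix genes shifted in composition. Col1a2, a chain of type I collagen, was at 3273, 3150.1 and 3005 FPKM in WT against 1923, 1876 and 1863 in NFIA-Tg, while Col1a1, the other chain, was called in 2 of the alternatives only (adjusted p = 0.0638). Col14a1 and Col15a1 were higher by 1.96 and 1.84, and both type VIII chains, Col8a1 and Col8a2, were lower (-2.22 and -1.98). Of 23 collagen genes, 12 were higher and 9 lower. Of 72 other matrix genes, 29 were higher and 27 lower, with a median of -0.01 that ranged from -0.04 to 0.03 across the alternatives. Eln, elastin, was at 3.1, 3.08 and 2.86 FPKM in WT against 11.5, 12.8 and 12.4 in NFIA-Tg. Loxl3, a lysyl oxidase that crosslinks collagen and elastin, was at 74.2, 76.8 and 73.1 FPKM in WT against 39.1, 31.1 and 34.7 in NFIA-Tg. Contractile genes of myofibroblasts were lower in 11 of 22 and higher in 5; Acta2, smooth muscle actin, was at 348 ± 58.7 FPKM in WT and 241 ± 29.2 FPKM in NFIA-Tg and Myl9, its myosin light chain, fell by 0.89 on the log2 scale.

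Glycolytic genes were lower in NFIA-Tg. Of 24 tested, 17 were called lower and 5 higher, with a median of -0.61. Pgk1, which makes the first ATP of glycolysis, was at 320.0, 309 and 319 FPKM in WT against 133, 107 and 118 in NFIA-Tg. Slc16a3, the lactate exporter, was at 24.2, 20.5 and 25.2 FPKM in WT against 7.49, 5.99 and 7.21 in NFIA-Tg. Gapdh, often used as a reference gene and rich in pseudogenes, was at 873 ± 40.4 FPKM in WT and 505 ± 40.2 FPKM in NFIA-Tg. Ldhb, the lactate dehydrogenase chain of oxidative tissue, was higher (1.42) while Ldha was lower (-0.64). The hypoxia response core (ACGTGC or GCGTGC) was held by 12 of 22 glycolytic genes with a promoter window (54.5%) against 30.1% of all. Among genes lower by at least 1, it was held by 59 of 248 (23.8%). Vegfa, another gene known to respond to low oxygen, was higher (0.37). Whether oxygen had a part in these differences was not tested.

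Sterol genes were higher. Of 26 genes of cholesterol synthesis and uptake, 18 were called higher and 1 lower, with a median of 0.29. Sqle, which makes squalene epoxide, was at 42.9, 43.2 and 47.3 FPKM in WT against 104, 100.1 and 103 in NFIA-Tg. Abca1, the cholesterol exporter and a target of LXR, was higher by 1.28 ± 0.049 (SE). Apoe, which encodes an apolipoprotein that takes up that cholesterol, was at 1.38, 2.04 and 1.8 FPKM in WT against 27.6, 28.3 and 32.4 in NFIA-Tg, among the largest rises. Respiratory chain genes moved by small amounts: 29 of 73 were higher and 13 lower, with a median of 0.07, and Cox6c alone was higher by at least 1. Cox6c, a subunit of cytochrome c oxidase, was at 179, 199.6 and 189 FPKM in WT against 503, 461 and 500.4 in NFIA-Tg.

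Retinoid genes moved in both directions. Aldh1a2, which makes retinoic acid, was at 41, 40.4 and 40.8 FPKM in WT against 3.94, 3.8 and 3.84 in NFIA-Tg. Aldh1a3, a second enzyme for the same step, was at 2.06, 2.29 and 1.93 FPKM in WT against 19.3, 16.3 and 18.9 in NFIA-Tg. The groups were far apart in both genes and in opposite directions. Crabp1, which binds retinoic acid in the cytoplasm, was lower (-1.88) and Rarres2, which encodes the adipokine chemerin, was higher (2.22). Of 19 tested genes of this list, 8 were higher and 6 lower. Glucocorticoid-induced genes did not move one way: 9 of 17 were higher and 5 lower, with the co-chaperone gene Fkbp5 at -1.48 and the metallothionein genes Mt1 and Mt2 at -1.25 and -1.96, while Tsc22d3 (GILZ) was at 0.31.

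Defining markers of several other cell types were at or near 0, while broader members of their lists were not. Ptprc (leukocytes), Adgre1 (macrophages), Cd3e (T cells), Cdh5 (endothelium), Epcam (epithelium) and Sox10 (Schwann cells) did not exceed 0.1 FPKM in any culture. The summed level of 25 macrophage markers was 11.7 to 13.9 FPKM in WT and 15.1 to 18.6 FPKM in NFIA-Tg, with 20 of 25 under 1 FPKM everywhere and 10 at 0. That of 18 endothelial markers was 11.9 to 13.5 and 12.8 to 14.4 FPKM, and that of 10 pericyte markers 23.3 to 24.5 and 32.7 to 34.3 FPKM. Among pericyte markers Cspg4 (NG2) was at 1.12, 1.28 and 1.2 FPKM in WT against 0.0179, 0.0367 and 0.0651 in NFIA-Tg, while Notch3 was called higher. In the mesothelial list (summed 11 markers 26.9 to 28.3 FPKM in WT and 37.1 to 37.5 FPKM in NFIA-Tg) 9 of 11 were under 1 FPKM everywhere, Msln and Wt1 among them. The other 2 were Cldn15, which was higher by 3.23, and Krt19, a keratin, at 25.7, 27.1 and 26.4 FPKM in WT against 16.7, 20.8 and 17.8 in NFIA-Tg. The 11 Schwann and nerve markers summed to 135 to 147 FPKM in WT and 139 to 151 FPKM in NFIA-Tg, most of it Pmp22 (higher by 0.27) and Ngfr (lower, -1.22), and of 4 tested 1 was higher and 2 lower. The summed level of 13 skeletal muscle markers was 5.82 to 9.36 FPKM in WT and 10.7 to 21.8 FPKM in NFIA-Tg. NFIA-Tg replicate 3 was the highest in the muscle list, with Des (desmin) at 1.58, 1.82 and 5.32 FPKM in the 3 NFIA-Tg cultures. Their part in the genotype difference was not tested, and without that replicate 7110 genes were called.

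Other genes were among the largest changes, and apart from Cldn15, a member of the mesothelial list, they belong to no list. Kctd12, a subunit of GABA-B receptors, was at 0.219, 0.571 and 0.299 FPKM in WT against 11.7, 17 and 13.7 in NFIA-Tg. Cox6b2, the testis form of a cytochrome c oxidase subunit, was at 2.95, 4.13 and 3.72 FPKM in WT against 39.6, 57.4 and 48.3 in NFIA-Tg. Ces2g (a carboxylesterase), Efs (a Src-binding adaptor), Cldn15 (a tight junction claudin) and Ramp2 (a partner of the calcitonin receptor-like receptor) were higher by 3.42, 3.41, 3.23 and 2.89. Serpina3c, one of several serpins of similar sequence, was at 2.18, 1.96 and 2.29 FPKM in WT against 24.9, 23.1 and 24.4 in NFIA-Tg, and Gdpd2 was higher by 2.93. Abhd11os, named for lying opposite Abhd11, was higher by 2.90, but without the strand setting its reads cannot be told apart from those of a partner gene. On the other side, Pgr, the progesterone receptor gene, was at 7.16, 8.13 and 6.99 FPKM in WT against 0.307, 0.338 and 0.223 in NFIA-Tg. The matricellular genes Smoc1 and Smoc2 were also lower (-2.52 and -2.51). The X-linked lymphocyte-regulated genes were at or near 0 in NFIA-Tg: Xlr was at 8.44, 8.78 and 8.87 FPKM in WT against 0, 0 and 0.193 in NFIA-Tg, and Xlr3b at 6.97, 6.97 and 7.27 FPKM in WT with no read in NFIA-Tg. The genes of this family are close copies of each other, so how reads were divided among them is uncertain.

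The day 0 difference did not carry over as a whole to the day 7 cultures, which were separate libraries of the same genotypes. Of the 317 genes lower by at least 1 at day 0, 265 (83.6%) were called lower at day 7 too, against 51.1% of all tested genes, and 27 were called higher. Of the 460 genes higher by at least 1, 149 (32.4%) were called higher at day 7, close to the 29.8% of all tested genes, and 227 were called lower. Mki67, Hoxb9 and Aldh1a2 were lower in NFIA-Tg at both days, with day 7 differences of -2.05, -3.12 and -3.76. Icam1, which differed by 3.06 at day 0, differed by -0.29 at day 7, and Pgk1 turned from -1.40 to 1.37. Nfia turned as well, from 0.80 at day 0 to -0.76 at day 7, where the libraries labelled NFIA-Tg held less Nfia than WT, so day 7 directions rest on labels that the targeted transcript does not bear out. The test of the difference between days called 9051 genes, 72.1% of those tested.

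**Figure D5:**
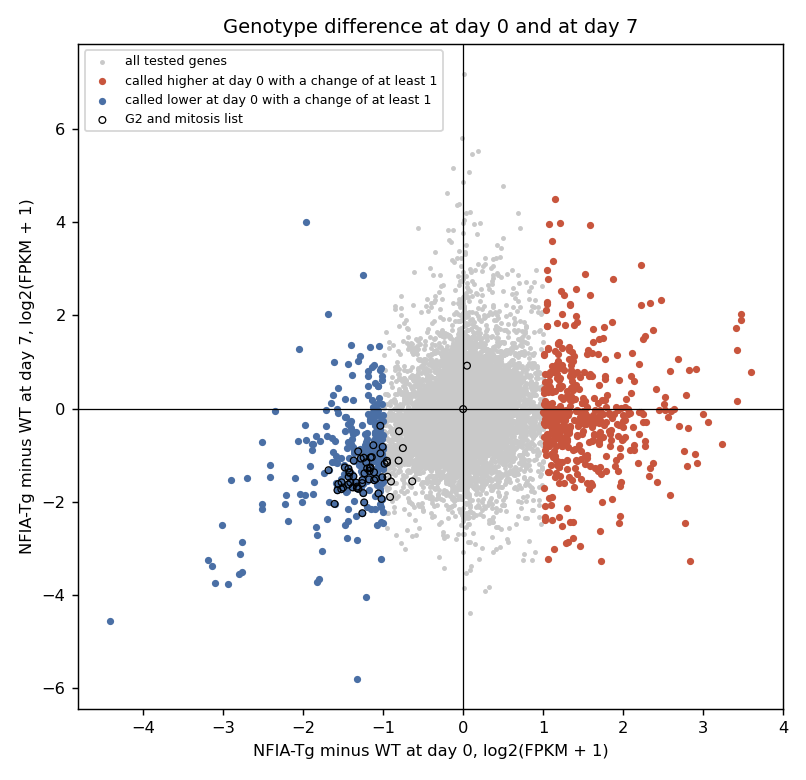
Genotype difference at day 7 (y) against that at day 0 (x), both NFIA-Tg minus WT on the log2(FPKM + 1) scale, 1 point per tested gene. Red and blue points were called with a difference of at least 1 at day 0 (460 and 317 genes), and open circles are the G2 and mitosis genes, most of which lie in the region below 0 on both axes.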

How the data were processed

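RNA-seq libraries (poly-A RNA, a stranded kit; the strand setting of the counting is not given) were deposited as FPKM per gene, with gene lengths. Per the submitters' processing notes the authors used STAR 2.7.8a, StringTie 2.1.1 and the mouse build mm9. FPKM times length fell on whole reads for 100.0% of values within a tolerance of 0.01 read, which gave the depths. All 12 culture libraries were fitted as 4 group means (8 residual degrees of freedom) on log2(FPKM + 1) with limma 3.58.1 in R 4.3.3 (mean-variance trend, Benjamini-Hochberg adjustment over all tested genes). The 12553 genes with at least 1 FPKM in at least 3 libraries were tested, of 24825 listed. The threshold for a call was an adjusted p of 0.05. On data simulated for this comparison, 185, 198 and 200 of 200 changed genes were recovered at log2 changes of 0.5, 1 and 2. In the same runs, 14, 6 and 9 unchanged genes were called. Only 200 genes were changed there and noise was drawn for each gene on its own. Those counts therefore do not carry over to the real data, where 63.0% of genes were called. The changed genes had a mean WT level of at least 2 on the log2(FPKM + 1) scale, so recovery of lower genes was not examined.

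Genes named are the NFI family, the 12 largest called increases and 12 largest decreases (groups apart, a mean of at least 5 FPKM in either genotype), and members of the gene lists. The lists were chosen with earlier results of these data known, and parts of the text name list members after their values were seen. The 6 inguinal fat libraries were not used. Alternatives covered pseudocounts, filters, scalings, variance models, a replicate block, the samples in the fit, left-out libraries and limma voom on the recovered reads.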

Additional observations from a re-analysis of the deposited data

Results flagged for a closer look

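The genotype difference at day 7 differed from that at day 0, by limma's test of the difference at an adjusted p under 0.05, for 9051 of the 12553 tested genes. Values here are the day 7 difference minus the day 0 difference on the log2 scale. In the NFI family it was -1.56 for Nfia, -1.04 for Nfic and -1.75 for Nfix, so that all 3 moved toward lower levels in NFIA-Tg at day 7. Among the genes with the largest rises at day 0, the difference moved down by day 7. It did so by -4.1 for Gdpd2, -3.99 for Cldn15, -3.87 for Ramp2, -3.35 for Icam1, -3.25 for Ces2g and -3.13 for Serpina3c. The shift was -2.82 for Gdf10, -2.16 for Cox6b2, -2.06 for Abhd11os, -1.68 for Efs, -1.56 for Kctd12 and -1.45 for Apoe. Among the genes with the largest falls it was 1.8 for Rsad2, 1.22 for Pgr, 0.52 for Xlr3b, 0.45 for Smoc2 and 0.36 for Smoc1, and -0.32 for Hoxb9 and -0.65 for Aldh1a2. On the log2(FPKM + 1) scale a positive shift need not mean a smaller ratio. Pgr means (WT against NFIA-Tg) were 7.43 against 0.289 FPKM at day 0 and 1.91 against 0.038 at day 7. Smoc2 went from 23.5 against 3.3 to 3.8 against 0.148 FPKM, and Xlr3b stayed at 0 in NFIA-Tg. Rsad2 and Smoc1 came closer, at 56.5 against 34.5 and 25.6 against 4.97 FPKM at day 7. All genes in this paragraph outside the NFI family were named for the size of their day 0 difference.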

How the results depend on the processing

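The number of genes called with a change of at least 1 rose from 777 to 1316 with a pseudocount of 0.1 (787 higher, 529 lower) and to 1434 with limma voom on the recovered reads (859 higher, 575 lower), an alternative added after seeing the data; a smaller pseudocount lets low genes pass. Leaving out 1 library at a time gave 7110 to 7287 genes called, 703 to 779 with a change of at least 1, and 8569 to 8750 for the difference between days. A replicate block gave 7822, 777 and 9027. Deviations of same-numbered libraries correlated at -0.071, 0.04 and 0.156, and those of unlike numbers at -0.187 to 0.114. Such correlations cannot decide whether the numbers pair the samples, which the labels do not say. Quantile normalization changed the split of the genes that differed between days from 3701 higher and 5350 lower to 4713 and 4306. The DESeq2 and edgeR tests planned for recovered reads were not run, since the deposited unit is FPKM. Genes that were not called crossed 0. With median-of-ratios scaling Bub3 was at 0.039 and Eif2s3y at 0.021, and with quantile normalization they were at 0.025 and 0.003 and Ucp1 at -0.021. With 1 library left out, ranges were -0.034 to 0.031 for Bub3, -0.033 to 0.131 for Cebpb, -0.04 to 0.001 for Eif2s3y, -0.051 to 0.111 for Pttg1, -0.011 to 0.033 for Rrm2 and -0.01 to 0.031 for Ucp1. Depth limits low genes: the log2(FPKM + 1) scale shrinks changes below about 1 FPKM, and only promoter windows, not gene coordinates, could be given for a build other than mm9.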

Other observations

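Some genes were present in 1 genotype and near 0 in the other. They were chosen after their values were seen, as at least 1 FPKM in all 3 libraries of one and under 0.1 FPKM in all 3 of the other. In WT there were 6, among them Epha3, an ephrin receptor, at 2.62, 3.18 and 2.44 FPKM in WT against 0, 0 and 0.0263 in NFIA-Tg, and Trpc6, a calcium channel, at 1.35, 1.36 and 1.18 against 0.00947, 0.0437 and 0.0207. In NFIA-Tg there were 11. Ces1g, a carboxylesterase with close copies beside it, was at 0.0181, 0.0199 and 0 FPKM in WT against 4.26, 5 and 5.08 in NFIA-Tg. Ptger3, a prostaglandin E receptor, was at 0.019, 0.0209 and 0.0369 against 2.38, 2.29 and 2.88, and Tnfrsf19, a TNF receptor family member, at 0.0173, 0.00952 and 0.0169 against 2.23, 2.47 and 2.16. Eya1, a transcriptional coactivator of muscle and kidney development, was at 0, 0.0209 and 0.00926 against 1.48, 1.61 and 1.63, and Adcy5, an adenylyl cyclase, at 0.0164, 0.018 and 0.0159 against 1.3, 1.09 and 1.32. The other WT genes were Cspg4, Xlr3b, Gm20756 and 4930573O16Rik, and the other NFIA-Tg genes were Alox5, Cacna1h, Ckmt1, Gm14139, Scn7a and Vstm4. Only Xlr3b and Gm20756 had no read in the other genotype. The rest had some, such as 46 in WT for Cacna1h and 26 in NFIA-Tg for Cspg4.

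General lists stood near the shares over all genes or below them. Of 30 genes of the unfolded protein and integrated stress response, 9 were higher and 9 lower. Of 25 immediate-early genes, 5 were higher and 8 lower, and of 48 ribosomal protein genes, 8 and 17. The count of lower ribosomal genes rested on single settings: it was 8 without NFIA-Tg replicate 2, 9 without WT replicate 2, 10 without WT replicate 3 and 8 with median-of-ratios scaling.

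The Y-linked genes Ddx3y, Eif2s3y, Kdm5d and Uty were present in all 6 cultures. Xist, the RNA of the inactive X chromosome, had 557 reads in NFIA-Tg replicate 3 and 2 to 14 in each of the other 5. The same replicate was the highest of its group for Des, as given above, and for Car3. Without it, 7110 genes were called, and 58 G2 and mitosis genes and 33 antiviral effectors were lower.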
